A study of Mus musculus with 18 samples.

Results

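The kidney injury marker genes Havcr1, Lcn2, Spp1, Clu and Wfdc2 were followed through folic acid injury of the mouse kidney. They were taken by symbol, and each matched 1 gene identifier, which gave 5 of the 37991 gene identifiers in the count tables. Messenger RNA of whole kidney had been sequenced in 18 libraries of 3 per group. The treated groups were male Balb/c mice of 25 to 29 g, killed 1, 2, 3, 7 or 14 days after 1 intraperitoneal dose of folic acid (250 mg/kg in 0.3 M sodium bicarbonate), and the sixth group was untreated Balb/c kidney. No group had bicarbonate alone, so effects of folic acid and of its vehicle cannot be told apart. The labels do not state that libraries are from different animals, and p-values then reflect only how far these samples spread.

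Folic acid at this dose precipitates in the tubule lumen and damages the tubular epithelium, which then partly regenerates and partly scars. Damaged tubule cells raise a set of genes, some of which are quiet in the healthy kidney. Several of the products reach the urine, where they serve as markers of acute kidney injury. Havcr1 encodes kidney injury molecule 1 (KIM-1), a membrane receptor of the proximal tubule with which surviving cells engulf dead ones. Lcn2 encodes neutrophil gelatinase-associated lipocalin (NGAL), a secreted protein that binds iron-carrying siderophores. Spp1 encodes osteopontin, a secreted phosphoprotein bound by integrins and by CD44. Clu encodes clusterin, a secreted chaperone, and Wfdc2 encodes HE4, a small secreted protein of the whey acidic protein family that inhibits proteases and has been tied to kidney fibrosis.

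The genes lie apart in the genome (GRCm38, GENCODE M21 gene limits). Havcr1 (ENSMUSG00000040405) spans chromosome 11 from 46735080 to 46779578 on the plus strand, and Spp1 (ENSMUSG00000029304) spans chromosome 5 from 104435118 to 104441050 on the plus strand. Lcn2 (ENSMUSG00000026822) spans chromosome 2 from 32384633 to 32388252 on the minus strand, and Wfdc2 (ENSMUSG00000017723) spans the same chromosome from 164562413 to 164568510 on the plus strand. Clu (ENSMUSG00000022037) spans chromosome 14 from 65968483 to 65981547 on the plus strand. None overlaps a gene on the opposite strand in that annotation, and Spp1 overlaps the predicted gene Gm42793 on its own strand, so reads from the stretch they share may not all be in the Spp1 counts.

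The start-site windows of the 4 genes with an entry in the RefSeq promoter table (GRCm38.p6) are shown because these genes rose together after injury. Each runs 5′ to 3′ on the gene's strand from 250 bases before to 50 bases after the start annotated there. For a gene with several starts the most upstream one in that promoter table was taken. RefSeq and GENCODE starts differ, and the Havcr1, Lcn2 and Wfdc2 windows lie inside the GENCODE limits given above. The Havcr1 window begins at 46739973, while the GENCODE limit is 46735080, so a start further upstream was not searched. Capitals mark matches, on either strand, to a TATA box (TATAAA), an AP-1 site (TGANTCA), a STAT site (TTCNNNGAA), a C/EBP site (TTGCNNAA) or an NF-kB core (GGG and CC with 5 bases between), where N is any base.
Havcr1, chr11:46739973-46740272, plus strand: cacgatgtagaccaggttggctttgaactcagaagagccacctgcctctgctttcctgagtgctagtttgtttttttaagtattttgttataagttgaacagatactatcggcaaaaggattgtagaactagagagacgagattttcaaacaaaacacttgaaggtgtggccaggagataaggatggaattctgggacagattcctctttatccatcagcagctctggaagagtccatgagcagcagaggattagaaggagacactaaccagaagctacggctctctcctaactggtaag
Lcn2, chr2:32387690-32387989, minus strand: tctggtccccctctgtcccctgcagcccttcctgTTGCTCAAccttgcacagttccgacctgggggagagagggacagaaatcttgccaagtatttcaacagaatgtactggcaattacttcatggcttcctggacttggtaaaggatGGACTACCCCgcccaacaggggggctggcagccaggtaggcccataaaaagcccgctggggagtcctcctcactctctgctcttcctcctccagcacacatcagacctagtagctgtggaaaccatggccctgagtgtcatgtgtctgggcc
Spp1, chr5:104434861-104435160, plus strand: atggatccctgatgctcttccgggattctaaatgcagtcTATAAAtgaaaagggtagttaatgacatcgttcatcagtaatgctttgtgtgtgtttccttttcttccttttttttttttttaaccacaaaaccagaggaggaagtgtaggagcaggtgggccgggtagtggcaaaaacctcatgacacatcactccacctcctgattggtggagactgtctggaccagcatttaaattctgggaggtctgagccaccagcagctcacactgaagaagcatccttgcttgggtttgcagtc
Wfdc2, chr2:164562465-164562764, plus strand: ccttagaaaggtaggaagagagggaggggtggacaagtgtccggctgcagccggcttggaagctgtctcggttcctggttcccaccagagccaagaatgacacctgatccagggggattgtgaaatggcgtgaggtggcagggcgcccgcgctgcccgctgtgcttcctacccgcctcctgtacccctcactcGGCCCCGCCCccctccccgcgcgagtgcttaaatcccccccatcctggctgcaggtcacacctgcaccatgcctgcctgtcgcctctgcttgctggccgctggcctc
The Lcn2 window held 1 C/EBP match, whose first base lay at -216 from the start, and 1 NF-kB match at -102, in the same window. The Wfdc2 window held 1 NF-kB match at -57 and the Spp1 window 1 TATAAA at -211, while none of these letter patterns occurred in the Havcr1 window. Over the 32851 windows of the same length in the table, 10.8% held the C/EBP pattern, 50.8% the NF-kB pattern, 13.6% TATAAA, 7.81% the AP-1 pattern and 8.3% the STAT pattern. A match describes letters only and is not a measured site.

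Reads assigned to genes ranged from 8.68 to 54.6 M (1e6 reads) per library, with a median of 24.4 M, of which 59.0 to 75.6% fell on the mitochondrial genome. Day 2 replicate 2 was the shallowest library. Defining markers of proximal tubule (12 of 12), loop of Henle and distal tubule (10 of 10), collecting duct (10 of 10) and podocyte (5 of 5) all had reads in untreated kidney. Levels are counts per 1e6 gene reads with TMM scaling (CPM), given for replicates 1, 2 and 3 in that order, and group values are mean ± SD of 3 libraries. Fold changes are the fitted ones of edgeR's quasi-likelihood test with their standard error (SE), and a gene was called at a Benjamini-Hochberg adjusted p under 0.05 over all 16824 genes tested. In whole kidney, more RNA per cell and more cells of the kind that makes it cannot be told apart.

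All 5 genes were higher than in untreated kidney at days 1, 2, 3 and 7, and 3 of them, Lcn2, Spp1 and Clu, still at day 14. Fitted log2 fold changes at day 1 were 7.15 for Havcr1 (SE 0.41), 7.30 for Lcn2 (SE 0.97), 6.88 for Spp1 (SE 0.53) and 3.95 for Clu (SE 0.32), with adjusted p from 9.78e-09 to 8.12e-05. The background is the share of all 16824 genes tested that were called higher, which was 5.09, 7.19, 4.18, 3.87 and 1.24% on days 1, 2, 3, 7 and 14 in turn. The share called lower, against which the counts of other gene lists below are to be read, was 5.56, 5.98, 3.43, 3.85 and 0.309%. All 3 libraries lay above all 3 untreated libraries for 5 of 5 genes on every day, against 16.1, 13.2, 14.8, 14.9 and 11.7% of genes tested on the same days in turn. Each of the 5 also differed across the 6 groups as a whole, as did 19.7% of genes tested, with adjusted p from 4.31e-09 for Havcr1 to 0.000355 for Wfdc2. The comparisons with untreated kidney share its 3 libraries and are not independent of each other.

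**Figure D1:**
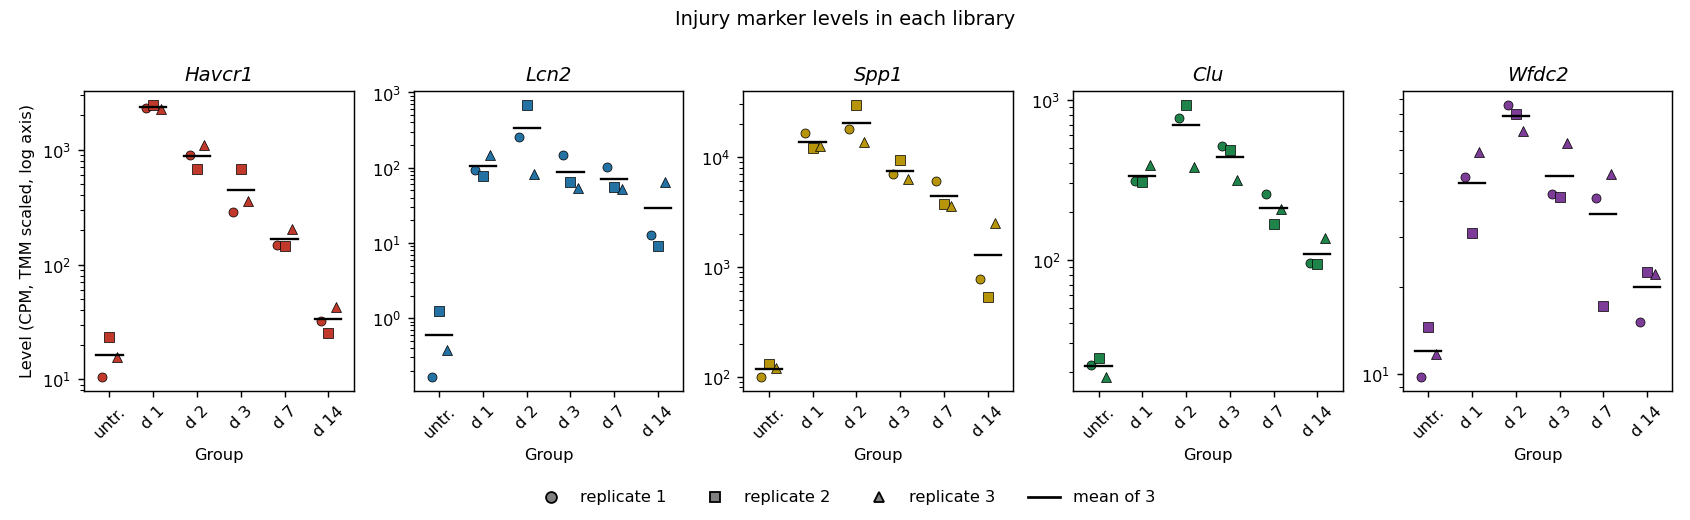
Level of each of the 5 genes in every library (CPM with TMM scaling, log axes that differ between panels) by group, with a symbol for each replicate and a bar at the mean of 3. Havcr1 was highest at day 1 (2338 ± 97.1 CPM) and the other 4 had their highest mean at day 2, where Lcn2 ranged from 81.7 to 680.4 CPM.

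Havcr1, the receptor, had its highest level at day 1 and was lower in each later group. It stood at 10.4, 23.3 and 15.5 CPM in the untreated libraries and at 2289, 2449.7 and 2275 CPM at day 1. It was then 902, 678 and 1091 CPM at day 2 and 285, 679 and 359 CPM at day 3. By day 7 it was 148, 144 and 205 CPM and by day 14 it was 32.0, 25.2 and 42.6 CPM. The 3 day 1 libraries agreed within 1.08-fold of each other, and among all pairs of groups only day 2 and day 3 overlapped, through day 3 replicate 2. The order of the means was therefore day 1, day 2, day 3, day 7, day 14 and untreated, with the order of day 2 and day 3 within their spread.

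The fitted Havcr1 excess over untreated kidney was 26.8-fold at day 3 (log2 fold change 4.74, SE 0.37, adjusted p = 2.86e-07) and 10.1-fold at day 7 (3.33, SE 0.35, adjusted p = 1.92e-05). At day 14 it was 2.02-fold (1.01, SE 0.32, unadjusted p = 0.00524) and did not pass (adjusted p = 0.115), although all 3 libraries lay above the untreated ones. The day 14 mean was 1.42 ± 0.38% of the day 1 mean, against 0.702 ± 0.28% in untreated kidney. Havcr1 thus lost most of its day 1 level within the sampled time.

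Lcn2, the siderophore binder, was nearly silent before injury, with 3, 53 and 6 reads in the untreated libraries (0.163, 1.26 and 0.376 CPM). It was 94.1, 78.4 and 148 CPM at day 1 and 259, 680.4 and 81.7 CPM at day 2. At day 3 it was 147, 64.0 and 54.1 CPM, at day 7 it was 102, 55.5 and 52.1 CPM, and at day 14 it was 12.8, 9.0 and 65.0 CPM. All 15 treated libraries lay above all 3 untreated ones. Among the treated groups every pair of neighbours in the order day 2, day 1, day 3, day 7 and day 14 overlapped, so neighbours in that order are within their spread. The day 14 libraries nevertheless all lay below those of days 1 and 2. Day 2 spanned 8.33-fold and day 14 7.22-fold between its lowest and highest library.

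Fitted Lcn2 folds were 130-fold at day 3 (log2 fold change 7.03, SE 0.96, adjusted p = 0.000229), 103-fold at day 7 (6.69, SE 0.95, adjusted p = 0.000342) and 42.6-fold at day 14 (5.41, SE 0.91, adjusted p = 0.00399). Their size rests on few untreated reads: without untreated replicate 2, the one with 53 reads, the log2 fold changes at days 1, 2, 3, 7 and 14 were 8.63, 10.28, 8.35, 8.02 and 6.74. Without day 14 replicate 3 the day 14 value was 4.0 (adjusted p = 0.0215), and without day 2 replicate 2 the day 2 value was 7.94, against 8.97 with all libraries. A further pair of fits ended the day 14 call, a fit of only the groups compared (adjusted p = 0.0601) and limma-voom (adjusted p = 0.184). Lcn2 was called higher on each day in every fit that left out 1 library.

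Neutrophils also store the Lcn2 protein, so their markers were measured beside it. Of 12 neutrophil markers, 4 had enough reads to be tested and edgeR called none on any day. At an unadjusted p under 0.05, 1, 2, 0, 1 and 1 were higher at days 1, 2, 3, 7 and 14 and none was lower, and DESeq2 called 1 higher at each of days 1, 2 and 7. The granule protease gene Elane had no read in any of the 18 libraries, the granule genes Ngp and Camp had none in 17 and 15 of them, and the calprotectin genes S100a8 and S100a9 reached at most 0.856 and 1.85 CPM. The summed level of the 12 markers was 5.90 to 8.21 CPM in untreated kidney and 8.53 to 9.84 CPM at day 1. On days 3, 7 and 14 it was 7.76 to 12.6, 11.8 to 14.3 and 8.68 to 14.6 CPM. At day 2 it was 6.85, 60.5 and 7.92 CPM, and replicate 2, which stands out there, was also the library with the most Lcn2. Nearly all of that sum came from the receptor genes Csf3r (36.2 CPM) and Cxcr2 (23.8 CPM), while S100a8 and S100a9 had no read in it.

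Spp1, the integrin ligand, had the highest level of the 5 per kilobase of exon in every group. It was 98.4, 131 and 121 CPM in untreated kidney, 16432, 12040.3 and 12631 CPM at day 1 and 17838, 29626 and 13766 CPM at day 2. It was 6915, 9272 and 6340 CPM at day 3, 5989, 3725 and 3575 CPM at day 7, and 766, 526 and 2514 CPM at day 14. Only day 1 and day 2 overlapped among neighbours in the order day 2, day 1, day 3, day 7, day 14 and untreated. Day 14 spanned 4.78-fold between its libraries, and replicate 3 stood between the rest of its group and day 7.

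Spp1 was 64.3-fold above untreated kidney at day 3 (log2 fold change 6.01, SE 0.51, adjusted p = 8.19e-07), 38.0-fold at day 7 (5.25, SE 0.49, adjusted p = 5.59e-06) and 10.9-fold at day 14 (3.44, SE 0.45, adjusted p = 0.000451). The day 14 log2 fold change was 2.47 without day 14 replicate 3 and was still called (adjusted p = 0.000412). The same library had the highest Havcr1, Lcn2, Spp1 and Clu of its group. Its summed level of 12 proximal tubule markers was 2624 CPM, against 5812 and 7214 CPM in the other day 14 libraries and 9652 to 10293 CPM in untreated kidney, and its summed level of 12 macrophage markers was 169 CPM, against 94.3 and 83.9 CPM. The part of either in the marker levels was not tested.

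Clu, the chaperone, had its highest mean at day 2 and was still raised at day 14. It was 22.1, 24.3 and 18.4 CPM in untreated kidney, 312, 304 and 390.0 CPM at day 1 and 772, 927 and 382 CPM at day 2. It was 511, 487 and 317 CPM at day 3, 259, 167 and 209 CPM at day 7, and 95.4, 94.6 and 137 CPM at day 14. The 3 early days overlapped one another, and days 7 and 14 stood apart from them, from each other and from untreated kidney. Clu was 20.3-fold up at day 3 (log2 fold change 4.34, SE 0.33, adjusted p = 2.62e-07), 9.79-fold at day 7 (3.29, SE 0.31, adjusted p = 6.57e-06) and 5.03-fold at day 14 (2.33, SE 0.30, adjusted p = 0.000423). Its day 14 mean was 15.7 ± 3.45% of its day 2 mean.

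Wfdc2, the protease inhibitor, had the smallest fitted fold of the 5 on each day. It was 9.73, 14.6 and 11.8 CPM in untreated kidney, 48.2, 30.8 and 59.1 CPM at day 1 and 85.8, 79.6 and 69.9 CPM at day 2. It was 42.0, 41.1 and 63.3 CPM at day 3, 40.9, 17.3 and 49.4 CPM at day 7, and 15.1, 22.6 and 22.3 CPM at day 14. The day 2 libraries lay above those of every other group, days 3, 1, 7 and 14 overlapped with their neighbours in that order, and the lowest day 14 library lay just above the highest untreated one.

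The Wfdc2 rise was 3.82-fold at day 1 (log2 fold change 1.93, SE 0.35, adjusted p = 0.00135), 6.51-fold at day 2 (2.70, SE 0.36, adjusted p = 7.89e-05) and 4.05-fold at day 3 (2.02, SE 0.35, adjusted p = 0.00164). At day 7 it was 2.98-fold (1.57, SE 0.35, adjusted p = 0.00932), a call that was lost without untreated replicate 1 (1.44, adjusted p = 0.0546). At day 14 it was 1.66-fold and did not pass (0.73, SE 0.34, unadjusted p = 0.0474, adjusted p = 0.31). Wfdc2 was still at 25.5 ± 5.38% of its day 2 mean at day 14, but its untreated level was already 15.3 ± 3.10% of that mean.

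**Figure D2:**
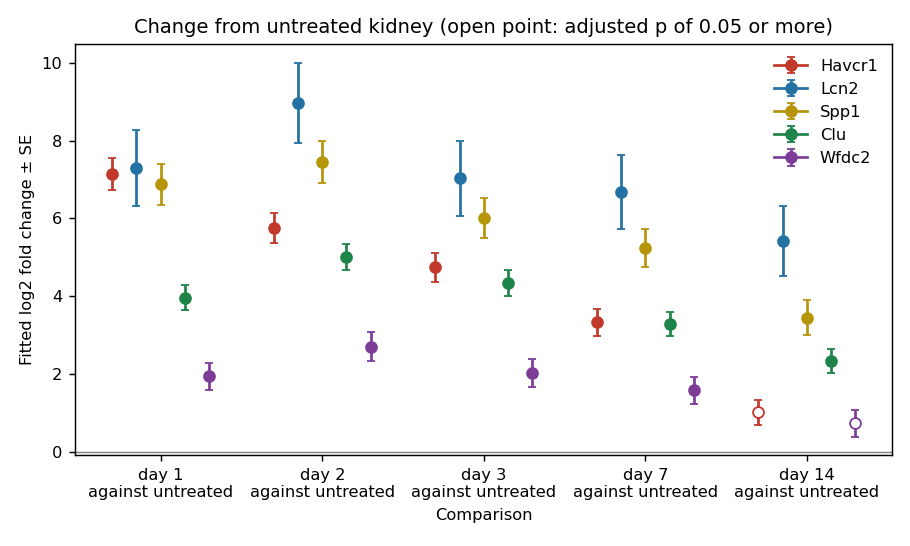
Fitted log2 fold change (± SE) of each gene on each day against untreated kidney, with open points where the adjusted p was 0.05 or more. At day 14 Havcr1 (1.01) and Wfdc2 (0.73) were open, and Lcn2 (5.41), Spp1 (3.44) and Clu (2.33) were called.

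Per kilobase of exon, which lets the genes be compared, the order of the 5 changed with time. In untreated kidney Spp1 stood at 70.8 ± 10.1 CPM per kb, Wfdc2 at 10.6 ± 2.13, Havcr1 at 7.10 ± 2.82, Clu at 6.29 ± 0.87 and Lcn2 at 0.229 ± 0.22. At day 1 Spp1 was at 8314 ± 1446 CPM per kb and Havcr1 at 1012 ± 42.0, while Clu was at 97.6 ± 13.8, Lcn2 at 40.8 ± 14.0 and Wfdc2 at 40.4 ± 12.5. At day 14 Spp1 was at 770 ± 659 CPM per kb, Clu at 31.7 ± 6.97, Wfdc2 at 17.5 ± 3.70, Havcr1 at 14.4 ± 3.81 and Lcn2 at 11.03 ± 11.9. Havcr1 was thus above Clu in all 3 day 1 libraries and below it in all 3 day 14 libraries on this scale. Exon lengths came from a later build than the one the reads were counted on, so the per-kb levels are approximate.

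Havcr1 had its highest mean at day 1 and the other 4 genes at day 2, but no step from day 1 to day 2 passed the test over all genes. The Havcr1 value was negative (log2 fold change -1.39, SE 0.32, adjusted p = 0.0999), and the values for Clu (1.05, SE 0.29, adjusted p = 0.128), Lcn2 (1.67, SE 0.73, adjusted p = 0.323), Wfdc2 (0.77, SE 0.34, adjusted p = 0.331) and Spp1 (0.57, SE 0.41, adjusted p = 0.589) were positive. Without day 2 replicate 2 they were 0.78 for Clu, 0.67 for Lcn2, 0.75 for Wfdc2 and 0.20 for Spp1. Of all genes tested, edgeR called 0.0594% from day 1 to day 2, 0.25% from day 2 to day 3, 0.0178% from day 3 to day 7 and 0.0178% from day 7 to day 14, which are 10, 42, 3 and 3 genes. These counts depended on the fit: DESeq2 called 515, 724, 217 and 147 genes on the same steps, and edgeR without the low-count filter 248, 388, 48 and 32. The Havcr1 step from day 1 to day 2 was called by DESeq2 (adjusted p = 0.0128), by limma-voom (adjusted p = 0.0149) and without the low-count filter (adjusted p = 0.00949), with a nearly equal size in each. The Clu step was called by DESeq2 (adjusted p = 0.0345) and without day 2 replicate 3 (log2 fold change 1.33, adjusted p = 0.0236).

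Of the 5 genes, Havcr1 was the 1 called between days 7 and 14, where it fell by 2.32 on the log2 scale (SE 0.33, adjusted p = 0.0215, 4.98-fold lower). Groups did not overlap there, with 144 to 205 CPM before and 25.2 to 42.6 CPM after. The call was lost without day 7 replicate 3 (-2.13, adjusted p = 0.0894), without day 14 replicate 1 (-2.29, adjusted p = 0.0646), without day 14 replicate 2 (-2.16, adjusted p = 0.172) and in a fit of those groups only (adjusted p = 0.256). The Spp1 value over the same step was -1.80 (SE 0.42, adjusted p = 0.243). Without day 14 replicate 3 it was -2.78 and called (adjusted p = 0.00078).

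**Figure D3:**
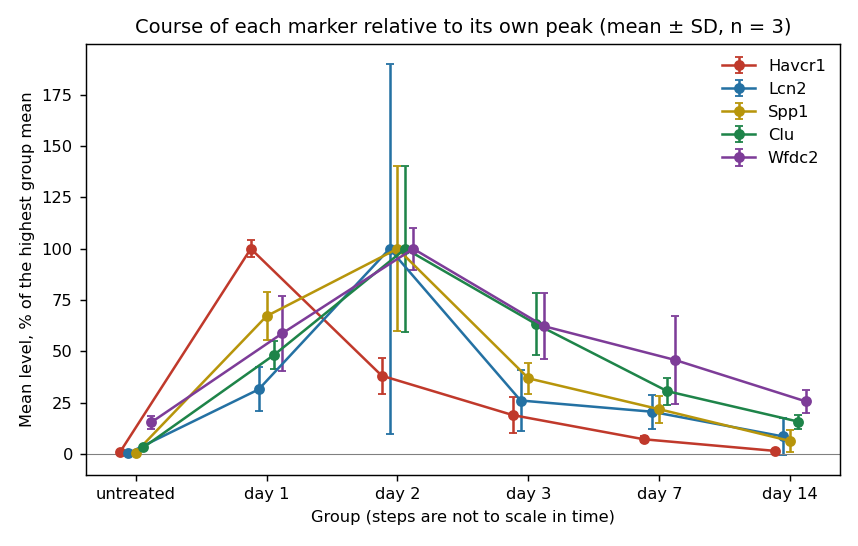
Mean level of each gene in each group as a percent of that gene's highest group mean (± SD, n = 3), with groups drawn at equal steps. Havcr1 peaked at day 1 and was at 38.1 ± 8.84% by day 2, while Clu and Wfdc2 were still at 63.2 ± 15.2% and 62.2 ± 16.0% at day 3.

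Decay was summarised by a straight line of log2 level on day over the 15 treated libraries, which does not follow the higher day 2 means of 4 of the genes. All 5 slopes were called falling, as were 3.05% of the 16617 genes tested in these libraries. Havcr1 fell by 0.44 on the log2 scale per day (SE 0.040, adjusted p = 3.05e-05), a halving every 2.29 days (2.10 to 2.52 at 1 SE either side). Spp1 fell by 0.29 (SE 0.039, adjusted p = 0.000722), a halving every 3.46 days (3.04 to 4.0). Lcn2 fell by 0.22 (SE 0.063, adjusted p = 0.0429), a halving every 4.54 days (3.52 to 6.37).

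Clu and Wfdc2 had the smaller slopes. All slopes are of the whole level and not of the excess over untreated kidney, so they do not rank how fast the excess was lost. A gene with a higher untreated level has less room to fall. The untreated mean was 15.3% of the highest group mean for Wfdc2 and 3.11% for Clu. It was 0.702% for Havcr1, 0.572% for Spp1 and 0.176% for Lcn2. Clu fell by 0.18 per day (SE 0.031, adjusted p = 0.00241), a halving every 5.55 days (4.75 to 6.69), and Wfdc2 fell by 0.13 (SE 0.028, adjusted p = 0.013), a halving every 7.99 days (6.51 to 10.3). The Wfdc2 slope was not called without day 14 replicate 1 (-0.11, adjusted p = 0.055). The Lcn2 slope missed the threshold in 8 of the 15 fits that left out 1 treated library, with adjusted p up to 0.129 without day 14 replicate 2. These 8 left out day 1 replicate 3, day 2 replicate 1, day 3 replicate 1, each day 7 library, or day 14 replicate 1 or 2. The Lcn2 slope lay between -0.32 and -0.16 over all 15 of these fits.

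The ratio of 2 of the genes within a library does not depend on how libraries are scaled, and 10 ratios were compared between days 1 and 14 and between days 1 and 2. An exact two-sided permutation test of 3 libraries against 3 cannot go below p = 0.1, so none of the 20 comparisons could pass, and the smallest adjusted value was 0.167. Libraries of day 14 and day 1 did not overlap for 8 of the 10 ratios. Libraries of day 2 and day 1 did not overlap for 4 of the 10, which were the 4 that contain Havcr1 and so share its values. The 10 ratios are built from the same 5 genes and are not independent of each other. How often ratios of other genes fail to overlap between these groups was not measured, so neither count has a background.

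Havcr1 reads relative to Clu reads had a mean log2 ratio of 2.81 ± 0.24 at day 1, 0.43 ± 1.00 at day 2 and -1.72 ± 0.17 at day 14, a 23.1-fold change in the ratio from day 1 to day 14 (p = 0.1, exact permutation test, smallest possible). The mean log2 ratio at days 1 and 14 was 5.72 ± 0.54 and 0.72 ± 0.50 for Havcr1 to Wfdc2 (31.8-fold), 4.50 ± 0.52 and 0.73 ± 1.16 for Havcr1 to Lcn2 (13.6-fold) and -2.54 ± 0.28 and -4.95 ± 0.81 for Havcr1 to Spp1 (5.32-fold). All 4 ratios were lower in each day 14 library than in any day 1 library. In the untreated libraries the log2 ratio of Havcr1 was 0.09, 0.68 and 0.40 to Wfdc2 and -1.09, -0.06 and -0.25 to Clu. It was -3.24, -2.49 and -2.96 to Spp1, and 5.99, 4.21 and 5.37 to Lcn2, whose untreated counts are low. For Spp1 to Clu it was 5.35 ± 0.35 and 3.23 ± 0.89 (4.35-fold), for Spp1 to Wfdc2 it was 8.25 ± 0.46 and 5.67 ± 1.14 (5.98-fold), and for Clu to Wfdc2 it was 2.91 ± 0.34 and 2.45 ± 0.33 (1.38-fold). The Lcn2 to Spp1 ratio went the other way, with -7.04 ± 0.55 at day 1 and -5.68 ± 0.35 at day 14 (2.57-fold higher), again without overlap. Lcn2 to Clu (1.70-fold lower) and Lcn2 to Wfdc2 (2.33-fold lower) were the 2 ratios whose libraries overlapped.

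**Figure D4:**
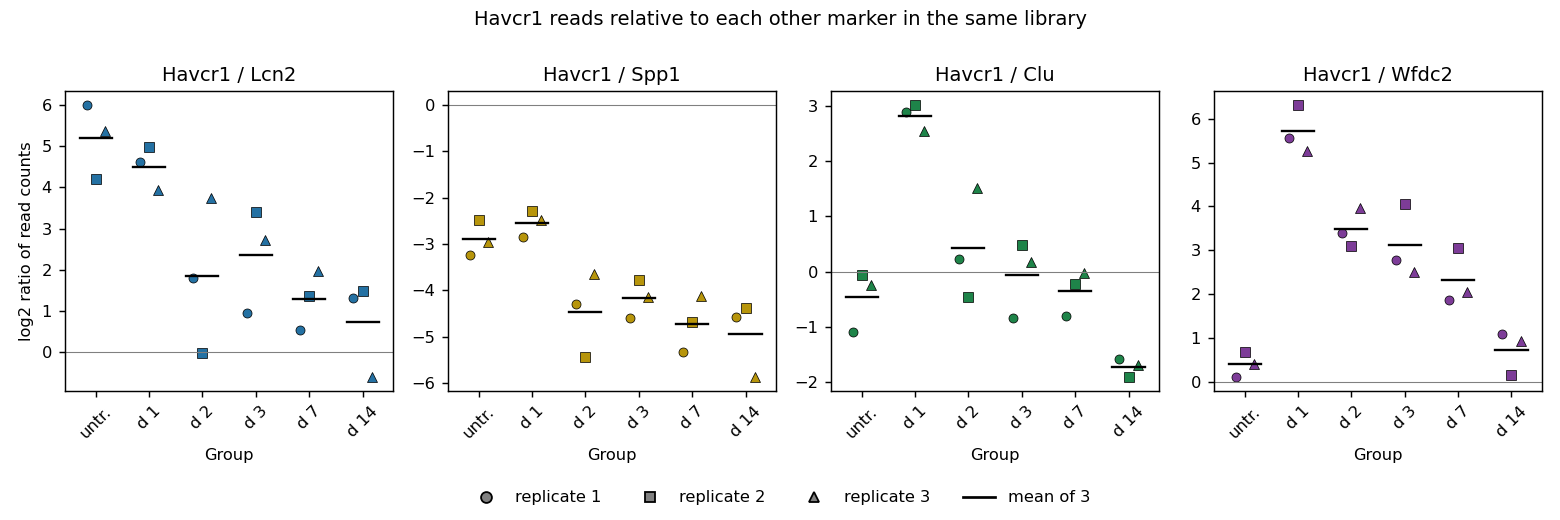
Log2 ratio of Havcr1 reads to the reads of Lcn2, Spp1, Clu and Wfdc2 within each library, by group, with a symbol for each replicate and a bar at the mean of 3. Each ratio was lower in all 3 day 2 and all 3 day 14 libraries than in any day 1 library.

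Genes whose course was most like that of each marker were found by the root mean square difference (RMS) between the 6 group means of log2 CPM, each centred on its own mean, among 7117 genes with a mean of at least 10 CPM in their highest group. This is a description over 6 groups of the same libraries. For Havcr1 they were Plin2, which coats lipid droplets (RMS 0.733), the protease inhibitor gene Spink6 (0.788), Lrg1 (0.819) and the fibrinogen chain gene Fga (0.831). Plin2 stood at 3.42 ± 1.07 CPM in untreated kidney and 179 ± 60.1 CPM at day 1. The nearest to Clu were Gc, which encodes the vitamin D binding protein (0.164), the adhesion molecule gene Icam1 (0.170), the ceruloplasmin gene Cp (0.274) and the tight junction gene Cldn4 (0.298).

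Lcn2 and Spp1 were among each other's 4 nearest genes (RMS 0.701). Nearest to Lcn2 was Serpina10 (0.550), a serpin gene that went from 0.0578 ± 0.060 CPM to 22.9 ± 4.46 CPM at day 1, followed by Spp1, the complement gene C3 (0.832) and the cytokine gene Lif (0.979). Nearest to Spp1 were Lif (0.637), the cytokine gene Clcf1 (0.690), Lcn2 and Serpina10 (0.821). For Wfdc2 they were the AP-1 family gene Fosl2 (0.179), Gm14681 (0.179), Tmcc3 (0.181) and the autophagy gene Atg7 (0.213). Among the 10 pairs of the 5 markers, Clu and Wfdc2 followed at 0.781, and Lcn2 and Wfdc2 were the least alike (2.09).

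Other genes of tubular injury and repair rose with the 5. Of 32 tested of 33 listed, 25, 27, 23, 19 and 11 were higher on days 1, 2, 3, 7 and 14, and 1 was lower on each of the last 2 days. The median log2 fold change of the list was 3.05, 3.11, 2.80, 2.15 and 1.46 on these days, against 0.05, 0.03, 0.07, 0.06 and 0.04 over all genes tested. Without day 2 replicate 2, 25 were higher at day 2, and without day 14 replicate 3, 9 were higher at day 14. Fga and Vcam1 are members with unlike courses. Fga was at 3.13 ± 1.03 CPM in untreated kidney, 113 ± 47.2 CPM at day 1 and 3.02 ± 0.98 CPM at day 14. Vcam1, an adhesion molecule, was at 1.59 ± 0.15 CPM in untreated kidney, had its highest mean at day 3 (198 ± 105 CPM) and was still 36.9-fold up at day 14 (adjusted p = 1.83e-05).

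Other urinary kidney markers did not share one direction. Of 20 tested of 24 listed, 3, 4, 4, 4 and 2 were higher and 4, 4, 4, 2 and 0 were lower at days 1, 2, 3, 7 and 14, with list medians between -0.16 and 0.14. Egf, the growth factor made in the distal nephron, fell from 306 ± 23.3 CPM to 3.66 ± 1.25 CPM at day 1 and 1.91 ± 0.99 CPM at day 2 (149-fold lower, adjusted p = 1.82e-07), and at day 14 it was at 189 ± 68.3 CPM (adjusted p = 0.444). Umod, which encodes uromodulin, was 5.85-fold lower at day 2 (adjusted p = 3.34e-05), and Calb1, the calcium-binding calbindin gene, was 13.5-fold lower at day 1 (adjusted p = 1.28e-05). These 3 genes are also among the 10 loop of Henle and distal tubule markers, of which 9, 8, 8, 2 and 1 were called lower on the 5 days, and whose summed level went from 2147 to 2770 CPM in untreated kidney to 415 to 657 CPM at day 1. The part of that shift in their levels was not tested. Ccl2, the monocyte attractant, moved the other way and had its highest mean at day 7, at 18.8 ± 5.80 CPM from 0.0939 ± 0.041 CPM (adjusted p = 6.57e-06).

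The urinary cell-cycle arrest pair Timp2 and Igfbp7, singled out after their values were seen, was not called higher at days 1 to 3. Timp2 was at 12.5 ± 0.94 CPM in untreated kidney, 8.93 ± 0.77 CPM at day 1 (adjusted p = 0.355) 37.0 ± 6.50 CPM at day 7 (adjusted p = 0.00429) and 42.3 ± 20.98 CPM at day 14 (3.37-fold up, adjusted p = 0.00534). Igfbp7 stayed between group means of 243 ± 82.7 and 322 ± 47.6 CPM and was called on no day.

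Of the 12 tested genes tied to the Havcr1 protein (related receptors, shedding proteases, and engulfment genes), 2, 2, 0, 1 and 0 were higher and 2, 2, 1, 1 and 0 lower on the 5 days. Without day 2 replicate 2, 1 was lower at day 2. With all libraries, 5 were higher and 2 lower at day 2 by DESeq2, and likewise at an unadjusted p under 0.05 in edgeR. Timd2, a receptor gene of the same family, rose 7.57-fold from 25.4 ± 6.48 to 192 ± 26.8 CPM at day 1 (adjusted p = 0.000106) and was 2.97-fold up at day 2 (adjusted p = 0.011). Reads that aligned to more than 1 place were tallied apart from genes in the deposited tables. Mertk, another receptor for dead cells that is also a macrophage marker, fell 3.60-fold at day 1 (adjusted p = 0.00621) and Lrrk2 fell 1.91-fold (adjusted p = 0.0201). Adam10, a protease that sheds membrane proteins, was 1.71-fold up at day 1 (adjusted p = 0.0474) and Adam17 was not called on any day. Havcr2 was called at day 2 at a mean of 11.5 ± 18.6 CPM, an SD above the mean.

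The receptors that take up filtered Lcn2 protein fell while Lcn2 rose. Lrp2, which encodes megalin, went from 1916 ± 231 to 396 ± 7.04 CPM at day 1 (4.84-fold lower, adjusted p = 7.89e-06) and was still lower at day 14, at 960.3 ± 356 CPM (adjusted p = 0.0357), a call that was lost without day 14 replicate 3. Lrp2 is also a proximal tubule marker. Its partner Cubn fell 3.31-fold at day 1 (adjusted p = 5.88e-05). The other Lcn2 receptor gene, Slc22a17, was not called on any day. Of the transcription factor genes that act on Lcn2, Nfkbiz was called higher on all 5 days, from 2.58 ± 0.96 to 31.8 ± 9.69 CPM at day 1, and Stat3 and Cebpd were called on 4 days each, Nfkb1 on 3 and Rela at day 1. Mmp9, whose product forms a complex with NGAL, stayed under a mean of 1 CPM in every group. Of the whole list of 14, 5, 5, 4, 4 and 1 were higher and 2, 2, 2, 2 and 1 lower at days 1, 2, 3, 7 and 14. Of 7 other lipocalins tested, edgeR called none higher on any day, and Apom fell 3.63-fold at day 1 (adjusted p = 0.042). At an unadjusted p under 0.05, 1 lipocalin was higher at each of days 1, 2 and 14, and DESeq2 called 1 higher at day 2.

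For osteopontin, the receptor gene Cd44 rose from 0.630 ± 0.11 CPM to 21.8 ± 8.74 CPM at day 1 (34.7-fold, adjusted p = 6.71e-05) and was still 40.1-fold up at day 14 (adjusted p = 0.00036). Among integrin genes, Itgb1 rose 2.67-fold at day 1 (adjusted p = 0.000347) and Itga5 was called higher at that day, while Itga8 was called lower at days 1 and 2. Itgb6 was called lower at days 7 and 14, and was 3.14-fold lower at day 14, from 144 ± 9.65 to 46.0 ± 1.22 CPM (adjusted p = 0.00105). Plau and Tgm2, whose products cut and cross-link matrix proteins, were both called higher at days 1 and 2. Of 18 tested, 6, 5, 4, 3 and 2 were higher and 2, 2, 0, 1 and 1 lower at days 1, 2, 3, 7 and 14. None of the 4 other genes of the SIBLING family, to which Spp1 belongs, had enough reads to be tested.

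Of the 12 tested genes tied to clusterin, 1, 1, 3, 3 and 2 were higher and 2, 2, 2, 2 and 1 lower at days 1, 2, 3, 7 and 14, and the single higher calls at days 1 and 2 are near the background. Without day 2 replicate 2 none was higher at day 2, and without day 14 replicate 3, 1 was higher and none lower at day 14. The clusterin receptor gene Lrp8 rose 5.05-fold at day 1 (adjusted p = 0.0105) while megalin fell, as given above. C8a, a part of the membrane attack complex that clusterin blocks, fell from 12.8 ± 6.69 to 1.08 ± 0.64 CPM at day 1 (adjusted p = 0.00298), and C7 of the same complex rose late, to 7.71 ± 0.86 CPM at day 14 from 0.631 ± 0.21 CPM (adjusted p = 0.0138). Apoe, which encodes another secreted apolipoprotein, rose 9.92-fold at day 7 (adjusted p = 0.00143).

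Of 12 other genes of the Wfdc family, 4 had enough reads to be tested. Wfdc15b fell 39.4-fold, from 19.0 ± 7.73 to 0.472 ± 0.45 CPM at day 1 (adjusted p = 0.000378), and was back at 17.4 ± 8.67 CPM at day 14. Slpi, named after its values were seen as the 1 family gene called higher, at days 1 and 7, had no read in untreated kidney and 0.850 ± 0.92 CPM at day 1 (adjusted p = 0.0324). The protease genes Prss35, Prss23 and Htra1, reported targets of HE4, were called on no day by edgeR or DESeq2. At an unadjusted p under 0.05, 1 was higher and 1 lower at each of days 7 and 14.

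Markers of several kidney cell types differed from untreated kidney over the same days. The summed level of 12 proximal tubule markers was 9652 to 10293 CPM in untreated kidney, 2129 to 2394 CPM at day 1 and 2010.5 to 2208 CPM at day 2. It was 2791 to 3472 CPM at day 3 and 1789.5 to 2694 CPM a week after injection, with the day 14 values given above. Of the 12, 11, 11, 10, 11 and 1 were called lower at days 1, 2, 3, 7 and 14, against 5.56, 5.98, 3.43, 3.85 and 0.309% of all genes, and without day 14 replicate 3 none was lower at day 14. Loop of Henle and distal tubule markers, given above for day 1, summed to 508 to 633 CPM at day 2, 727 to 1099 CPM at day 3, 1670.3 to 1850.3 CPM at day 7 and 2174 to 2725 CPM at day 14, within the untreated range, and the 1 called lower at day 14 was not called without day 14 replicate 3. Of 9 collecting duct markers tested, 3, 3, 1, 0 and 0 were lower and 1, 1, 1, 1 and 0 higher, with a sum of 81.1 to 142 CPM in untreated kidney and 36.8 to 61.6 CPM at day 1. The keratin gene Krt18 is on this list and also on that of tubular injury and repair genes. Of 5 podocyte markers, 0, 2, 1, 1 and 0 were lower, with a sum of 91.3 to 145 CPM in untreated kidney and 41.5 to 58.9 CPM at day 2. The summed level of 12 macrophage markers was 40.9 to 83.0 CPM in untreated kidney, 25.0 to 30.8 CPM at day 1 and 29.2 to 35.7 CPM at day 2. It then reached 54.3 to 66.6 CPM at day 3, 121 to 155 CPM at day 7 and 83.9 to 169 CPM at day 14. Macrophage markers called higher by edgeR numbered 0, 0, 2, 8 and 4 of 12 at days 1, 2, 3, 7 and 14, and the 4 at day 14 were 1 without day 14 replicate 3. At day 14 DESeq2 called 8 higher and 0 lower, and 10 were higher and 0 lower at an unadjusted p under 0.05 in edgeR. The macrophage sums were thus below the untreated range at days 1 and 2, when the 5 genes had their highest means. Of the 12 markers, 2 were called lower on each of those days, but none at day 2 without day 2 replicate 2. The lower sums rested mainly on Csf1r and Mertk and do not show a fall of the macrophage markers as a group. Csf1r was at 17.02 to 33.8 CPM in untreated kidney and 4.72 to 14.4 CPM over days 1 and 2. Mertk was at 17.996 to 34.1 and 6.08 to 10.2 CPM. No other marker was above 3.95 CPM in an untreated library. At day 1 no other marker had all its libraries below all untreated ones, and at day 2 only C1qc and Mrc1 did. The part of these shifts in the levels of the 5 genes was not tested.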

How the data were processed

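Total RNA of frozen kidney was extracted with TRIzol, and libraries were made from 10 ng with NuGEN SPIA amplification, per the labels' protocols. Per the submitters' processing notes, cutadapt, TopHat2 2.07, HTSeq and DESeq were used with the mouse build NCBIM37; strand use and the gene annotation are not given in the sources used here. The authors deposited a raw count of reads per gene for each library, with 5 tallies of reads given to no gene (34.5 to 51.3% of a library) that were left out, and a normalized signal, which was the raw count divided by 1 size factor per library (0.218 to 1.97). All tests ran on the raw counts.

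A reference list of gene names gave symbols for 32919 of the 37991 gene identifiers, and GENCODE M21 gave gene limits and exon lengths. Counts were fitted with edgeR 4.0.16 (TMM, filterByExpr, quasi-likelihood F test, 18 libraries, group as the only term), and all p-values are two-sided. A second fit took day as a number over the 15 treated libraries. Ratios within a library were taken from the raw counts and tested by exact permutation, and 0.5 was added to each count only as an alternative. Low counts limit Lcn2 in untreated kidney. Reads copied by PCR and lacking molecular identifiers are not independent of each other.

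The 5 genes were named always. Of each other list up to 4 examples were named, by the smallest p across the 6 groups, partner genes were named freely, and the 4 nearest genes by course were named for each marker. Members, lists and tests were chosen with earlier results of these data known. The 16 other lists held 217 entries, not counting the 5 members, and 215 of these entries were found. The labels state no pairing by replicate number, and no sign of it was seen over all genes tested. Deviations from the group means correlated between -0.0543 and 0.0416 in the 45 pairs of libraries with the same number. In the 90 pairs with different numbers they correlated between -0.0559 and 0.0501. A weak pairing could be missed this way. No library was a copy of another. Alternatives were other scalings, no low-count filter, DESeq2 1.42.0, limma-voom (limma 3.58.1), a replicate block, fits of only the groups compared, mitochondrial genes left out, the deposited normalized values, and each library left out in turn. Tests were checked on simulated counts. R 4.3.3, Python 3.11.15, pandas 2.3.3 and matplotlib 3.10.9 were used.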

Additional observations from a re-analysis of the deposited data

How the results depend on the processing

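Every rise of the 5 genes over untreated kidney kept its direction and its call under every alternative, apart from Lcn2 at day 14 and, with a library left out, Wfdc2 at day 7. The Lcn2 log2 fold change at day 14 was 5.47 (adjusted p = 0.0601) with only the groups compared and 5.15 (adjusted p = 0.184) with limma-voom. Wfdc2 at day 7 lay between 1.27 and 1.90 with 1 library left out. Steps between consecutive times were called more often elsewhere. Without the low-count filter Havcr1 was called at -1.42 from day 1 to 2 and at -1.42 from day 3 to 7, and Spp1 at -1.41 from day 2 to 3 and at -1.81 from day 7 to 14. With DESeq2 the same steps were called at -1.35, -1.39, -1.47 and -1.81, and Clu at 1.10 from day 1 to 2. limma-voom called Havcr1 at -1.36 from day 1 to 2. The Havcr1 step from day 7 to 14 was not called at -2.32 with only the groups compared. With 1 library left out, it lay between -2.53 and -2.13, Clu from day 1 to 2 between 0.78 and 1.33, Lcn2 between 0.67 and 2.12 and Spp1 between 0.20 and 0.78 on the same step, Spp1 from day 2 to 3 between -1.66 and -1.08 (called without day 14 replicate 3), and Spp1 from day 7 to 14 between -2.78 and -1.44. Lcn2 from day 3 to 7, never called, lay between -0.72 and 0.24 and reversed without day 3 replicate 1. The Lcn2 slope was not called with library totals alone (-0.19), with the replicate block (-0.21) or over days 2 to 14 (-0.26), and lay between -0.32 and -0.16 with 1 library left out. The Wfdc2 slope lay between -0.14 and -0.11. The cause of these differences was not tested.

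The replicate block, for which the labels state no pairing, changed no other call of the 5 genes. Library totals alone shifted the median log2 fold change of all genes to 0.28, 0.64, 0.74 and 0.36 at days 2, 3, 7 and 14. They gave 1450 higher and 651 lower genes at day 2 (1210 and 1006 with TMM), 2042 and 196 at day 3 (703 and 577), 2390 and 175 at day 7 (651 and 647), and 417 and 18 at day 14 (208 and 52). Genes called at day 14 numbered 260, against 480 without the filter, 71 with only the groups compared, 923 with DESeq2 and 106 to 351 with 1 library left out. At day 1 there were 1792, and 1164 (without day 1 replicate 2) to 1992 with 1 library left out. At day 2 there were 2216, with 1186 when only the groups compared were fitted and 1453 (without untreated replicate 1) to 2209 with 1 library left out. At day 3 there were 1280, with 2161 by DESeq2 and 614 (without day 3 replicate 2) to 1531 with 1 library left out. At day 7 there were 1298, with 2153 by DESeq2 and 607 (without day 7 replicate 1) to 1508 with 1 library left out. Between consecutive times 10, 42, 3 and 3 were called. With 1 library left out these counts lay between 1 and 158 from day 1 to 2 and between 14 and 272 from day 2 to 3, both highest without day 2 replicate 1, between 0 and 6 from day 3 to 7, and between 0 and 56 from day 7 to 14, highest without day 14 replicate 3. Across the 6 groups 3315 were called, 5395 with DESeq2 and 2101 with limma-voom. For the slope 1152 were called, 2163 with DESeq2 and 433 over days 2 to 14, and 731 (without day 14 replicate 2) to 1269 with 1 library left out.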
